A study of Mus musculus with 6 samples.

Results

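The genes described here are Crxos1, Cphx1, Cphx2, Trim43a and Trim43b, 5 of the 23308 gene symbols in the deposited tables. They were taken by symbol, as genes whose transcripts appear in the cleaving embryo. They were selected on their FPKM in these libraries at both stages, with the 4-cell values of both genotypes known, so the difference between stages and the difference between genotypes at the 4-cell stage are given as descriptions, without a test. The series compared mouse oocytes and embryos labelled YAP-null with wild-type ones, and asks by its title whether YAP made in the oocyte switches on the first genes of the embryo. Each library came from 60 oocytes or embryos. The females were of ICR background, 21 to 23 days old and primed with PMSG and hCG, and were mated where embryos were collected. The YAP-null libraries, labelled YAP-/- and Yap1-deleted and taken from YAP-/- females, are 2 of germinal vesicle (GV) oocytes, which have not resumed meiosis, and 1 of 4-cell embryos. The wild-type libraries, from wild-type females, are likewise 2 of GV oocytes and 1 of 4-cell embryos. The source field of both 4-cell samples reads GV oocyte, whereas their titles and stage fields read 4-cell, and the titles were followed. The sources used here do not give the cells of the females that lacked Yap1, the way it was deleted or the genotype of the fathers. Nothing in the labels says that libraries of a group came from separate females, so p-values measure the spread between these libraries only.

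YAP, encoded by Yap1, is a coactivator that Hippo signalling holds back and that reaches DNA through TEAD factors. Homeobox genes encode transcription factors that bind DNA through the homeodomain, and several divergent ones, among them the Obox, Cphx and Crxos genes of the mouse, are active mainly in oocytes and cleaving embryos. Crxos1, now named Crxos and also known as Egam1, encodes homeodomain proteins of the early embryo. Cphx stands for cytoplasmic polyadenylated homeobox. Trim43 genes belong to the tripartite motif family, many of whose proteins are ubiquitin ligases. Human TRIM43 is switched on by the cleavage-stage factor DUX4.

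The sequences that follow show how alike the copies are, because this decides which of the levels can be read gene by gene. The coding sequences of Cphx1, Cphx2 and a further copy, Cphx3, were 549 bases long and identical at all 549 positions in the GENCODE M21 transcripts. The transcripts of Cphx1 and Cphx2 were identical over all 1649 aligned bases, untranslated parts included, so no read within those bases can be given to a copy. The homeobox is shown by 75 coding bases around the tryptophan and phenylalanine codons (capitals) of the helix that contacts DNA, which lie at bases 220 to 225 of the Cphx coding sequence. Crxos has such a codon pair at bases 178 to 183 and again at bases 508 to 513 of its 741 coding bases.
Cphx1, Cphx2 and Cphx3: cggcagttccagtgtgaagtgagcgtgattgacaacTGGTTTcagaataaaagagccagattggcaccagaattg
Crxos, first pair: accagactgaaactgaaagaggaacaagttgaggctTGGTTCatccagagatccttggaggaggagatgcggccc
Crxos, second pair: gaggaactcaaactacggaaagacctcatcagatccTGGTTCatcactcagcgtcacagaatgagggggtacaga

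The Trim43 copies can be told apart in part. Over 1341 aligned coding columns Trim43a and Trim43b differed by 21 mismatches and 6 gap columns (98.0% identity), and the longest identical run was 198 bases. Trim43a and the third copy, Trim43c, differed by 42 mismatches and 3 gap columns (96.6% identity). Among stretches of 60 bases free of gaps, the one with the most differences was bases 128 to 187 of the Trim43a coding sequence. It is printed with the 6 positions at which the 3 copies are not all alike in capitals. In this stretch Trim43a and Trim43b differ at the first base only, and Trim43c differs from both of them at the other 5 positions.
Trim43a: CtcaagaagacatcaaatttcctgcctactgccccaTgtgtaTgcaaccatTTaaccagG
Trim43b: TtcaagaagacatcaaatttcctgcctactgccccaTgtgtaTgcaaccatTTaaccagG
Trim43c: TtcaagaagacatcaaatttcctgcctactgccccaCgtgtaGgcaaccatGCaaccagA

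The targeted gene, Yap1, was below its wild-type level in each library labelled YAP-null. Yap1 was at 10.8 and 10.04 FPKM (a fragment density scaled to transcript length and library size) in YAP-null GV oocytes, against 248 and 154 FPKM in wild-type GV oocytes. In 4-cell embryos the YAP-null level of 33.3 FPKM was 37.2% of the wild-type level of 89.7 FPKM. From GV oocytes to 4-cell embryos Yap1 thus rose in the YAP-null libraries, by 1.59 on the log2(FPKM + 1) scale. In the wild-type libraries it changed by -1.11. The name YAP-null embryos follows the label and does not mean embryos shown to lack Yap1. From 9984 to 10823 symbols reached 1 FPKM in each library. The tables give no read counts and the depth is unknown. Of 22 oocyte marker genes, which include the zona pellucida genes and Gdf9, 21 were above 0 in every GV library and Sohlh1 was listed at 0 in all of them.

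In GV oocytes the genes were listed at or near 0. Crxos1, Trim43a and Trim43b were listed at 0 FPKM in both YAP-null and both wild-type GV libraries. The summed Cphx1 and Cphx2 level was 0.439 and 0 FPKM in YAP-null GV oocytes, against 0.0690 and 1.11 FPKM in wild-type GV oocytes, with overlapping groups. The YAP-null mean of 0.219 ± 0.310 FPKM lay within the spread of the wild-type mean of 0.587 ± 0.733 FPKM (SD, n = 2 each). Of this, the Cphx1 line held 0.363 and 0 FPKM in YAP-null GV oocytes, against 0.0349 and 0.959 FPKM in wild-type GV oocytes. An FPKM of 0 in these tables is a listed value whose depth limit is unknown. Trim43c, a copy outside the 5 genes, was at 0.896 and 0.984 FPKM in YAP-null GV oocytes, against 1.97 and 0.451 FPKM in wild-type ones. It was the only one of the Trim43 copies listed above 0 at this stage.

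The genotype test in GV oocytes therefore has no value for the 5 genes. None of them reached the mean of 1 FPKM over the 4 GV libraries that the test asked for. Of the 10462 genes tested with limma (two-sided, Benjamini-Hochberg adjusted p under 0.05), 0 were called (0%), and 22 had an unadjusted p under 0.05. The targeted gene itself was not called: Yap1 differed by -4.10 ± 0.39 (SE) on the log2(FPKM + 1) scale, with an unadjusted limma p of 0.00017. The absence of calls therefore does not show that the genotypes were alike. Trim43c, which was tested, differed by -0.10 ± 0.46 (SE) on the log2(FPKM + 1) scale, with an adjusted p of 1.00. With 2 libraries on either side, the smallest p of an exact two-sided permutation test is 0.333. With no filter on low values Cphx1 differed by -0.29 ± 0.44 and Cphx2 by -0.07 ± 0.08, each with an adjusted p of 1.00 in limma, and Crxos1, Trim43a and Trim43b, at 0 in all 4 libraries, differed by 0.

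**Figure D1:**
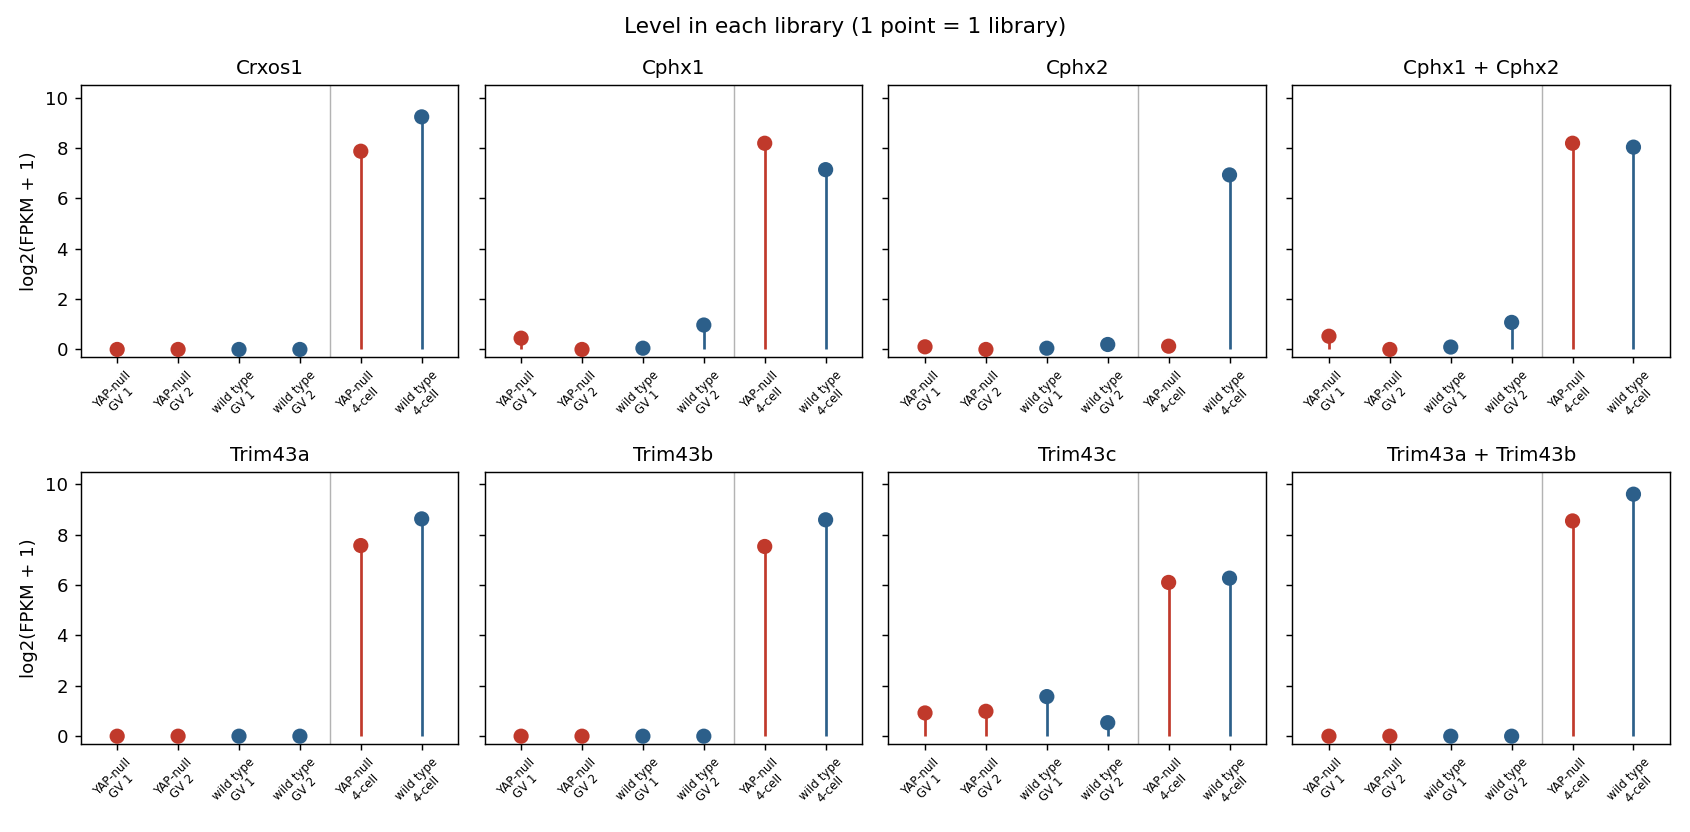
Level of each gene and of the copy sums in each of the 6 libraries, as log2(FPKM + 1). Each point is 1 library, YAP-null in red and wild type in blue, with GV oocytes left of the grey line and 4-cell embryos right of it. Crxos1, Trim43a and Trim43b lie at 0 in all GV libraries and between 7.53 and 9.23 at the 4-cell stage, and Cphx2 is high in the wild-type 4-cell library only.

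At the 4-cell stage Crxos1, the Trim43a + Trim43b sum and the Cphx1 + Cphx2 sum were all abundant in both genotypes. Crxos1 was at 233 FPKM in YAP-null embryos, against 600 FPKM in wild-type embryos, which placed it 258th among the genes of the YAP-null library and 100th among those of the wild-type library. Trim43a and Trim43b together were at 373 FPKM in YAP-null embryos, against 779 FPKM in wild-type embryos. Cphx1 and Cphx2 together were at 290 FPKM in YAP-null embryos, against 261 FPKM in wild-type embryos. As summed, the order of these 3 levels differed. In YAP-null embryos it was Trim43a + Trim43b, Cphx1 + Cphx2 and Crxos1. In wild-type embryos it was Trim43a + Trim43b, Crxos1 and Cphx1 + Cphx2. The Cphx level adds values listed at 3 repeats, and whether reads were split between them or counted at each is not stated. At the first repeat alone Cphx1 and Cphx2 were at 96.6 and 0.0313 FPKM in YAP-null embryos, against 46.2 and 40.3 FPKM in wild-type embryos. Taken so, Cphx lies below Crxos1 in both libraries and the order is the same. With 1 library per genotype no spread between embryo samples stands behind either order. In bulk samples, fewer cells making a transcript and less transcript per cell cannot be told apart.

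Crxos1 and both copy sums, 3 of 3, were at least 4-fold above every GV library of their genotype on the FPKM + 1 scale, in YAP-null and in wild-type embryos. Of all genes, 14.3% of 11391 met this rule in YAP-null and 16.7% of 11464 in wild type. Counted gene by gene it was 4 of 5 in YAP-null and 5 of 5 in wild type, a difference that rests on the listed Cphx2 value alone, which cannot be told from that of Cphx1. The genes were chosen for this pattern, so these counts describe them only. No fold is given for Crxos1, Trim43a and Trim43b between stages, because they are listed at 0 in GV oocytes.

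Between the 4-cell libraries the 5 genes did not move as a group. Of the 5 genes, 4 were at least 2-fold lower in the YAP-null library on the FPKM + 1 scale, where 9.97% of 10854 measured genes (mean over both libraries of 1 FPKM or more) were, and 1, Cphx1, was at least 2-fold higher, where 17.7% of genes were. Taken over the units that the sequences allow, Crxos1 and the Trim43a + Trim43b sum were at least 2-fold lower and the Cphx1 + Cphx2 sum was not 2-fold apart. These are single libraries, and the differences have no replicate check. Of the genes 2-fold apart, 64.0% were higher in YAP-null embryos as deposited, 75.4% with both libraries brought to equal FPKM sums, 52.8% with quantile normalization, and 81.1% with rescaling to housekeeping genes.

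**Figure D2:**
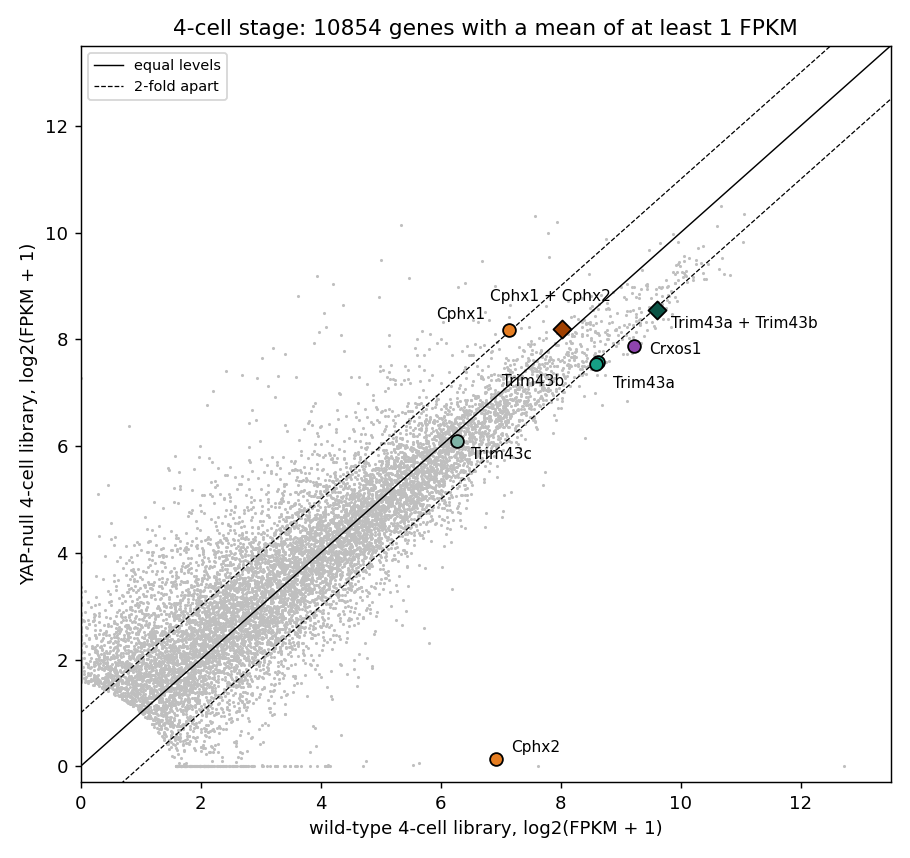
Level of 10854 genes (grey points, those whose mean over both 4-cell libraries was 1 FPKM or more) in the YAP-null 4-cell library (vertical axis) and the wild-type 4-cell library (horizontal axis), as log2(FPKM + 1). Circles are single genes and diamonds are sums over copies. Crxos1 lies below the lower 2-fold line, Trim43a, Trim43b and their sum lie just below it, and the Cphx1 + Cphx2 sum lies near the line of equal levels.

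Crxos1 had the larger difference of the readable levels. Its level of 233 FPKM in the YAP-null library was 38.7% of the 600 FPKM in the wild-type library, a difference of -1.36 on the log2(FPKM + 1) scale. The deposited bounds were 217 and 248 FPKM for YAP-null embryos and 573 and 628 FPKM for wild-type embryos, and did not overlap. They belong to 1 library each, and their level and what they cover are not given. Of 23813 lines, 808 in the YAP-null and 935 in the wild-type 4-cell library had a value outside its own bounds. Of all tested genes 5.23% had a difference as low or lower. The gene lies on chromosome 7 at 16467966 to 16489379 in mm9, with 3 start sites in the tables. Its nearest neighbour, Crx, the cone-rod homeobox gene of photoreceptors from whose opposite strand Crxos1 takes its name, ends 2662 bases before it and does not overlap it in these models. Crx was at 1.14 FPKM in YAP-null embryos, against 1.63 FPKM in wild-type embryos.

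The Trim43 copies were not alike in their 4-cell values. Trim43a (chromosome 9, 88475874 to 88483657, mm9) was at 189 FPKM in YAP-null embryos, against 394 FPKM in wild-type embryos. Trim43b (chromosome 9, 88979462 to 88987673) was at 184 FPKM in YAP-null embryos, against 384 FPKM in wild-type embryos. The difference was -1.06 on the log2(FPKM + 1) scale for each of them, and Trim43a held 50.6% of their sum in each library. Trim43c (chromosome 9, 88734002 to 88743028), between them on the chromosome, was at 67.8 FPKM in YAP-null embryos, against 76.4 FPKM in wild-type embryos, a difference of -0.17 that turned to 0.02 with equal library sums and to 0.16 with rescaling to housekeeping genes. The sum over the 3 copies was 440.4 FPKM in YAP-null embryos, against 855 FPKM in wild-type embryos, a difference of -0.96. The deposited Trim43a and Trim43b values lie above their own upper bounds in both 4-cell libraries, so their bounds are not used. How reads shared by the copies were assigned is not stated. Trim43c also overlaps another gene model, 9330159M07Rik, and the strand setting of the counting is not stated. That model was at 10.95 FPKM in YAP-null embryos, against 18.2 FPKM in wild-type embryos.

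The Cphx levels depended on whether the copies were summed. The tables list a Cphx1 and a Cphx2 model at each of 3 repeats on chromosome 14 (mm9: 26762026 to 26775856, 26901779 to 26915613 and 27041390 to 27055226), whose starts lie 139753 and 139611 bases apart. At each repeat the Cphx1 and Cphx2 models cover nearly the same bases. In the YAP-null 4-cell library the Cphx1 model had 96.6, 96.7 and 96.8 FPKM at the 3 repeats and the Cphx2 model 0.0313 FPKM at each. In the wild-type 4-cell library the Cphx1 model had 46.2, 47.1 and 46.4 FPKM and the Cphx2 model 40.3 FPKM at each.

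Read singly, Cphx1 would be higher in the YAP-null library, at 290 against 140 FPKM in wild type, and Cphx2 lower, at 0.0940 against 121 FPKM in wild type. The log2(FPKM + 1) differences were 1.05 and -6.80. Cphx2 held 0.0324% of the Cphx sum in the YAP-null library and 46.3% of it in the wild-type library. Since the Cphx1 and Cphx2 transcripts are identical over the 1649 aligned bases, these single values cannot be read as levels of separate genes. The sum, 290 FPKM in YAP-null embryos, against 261 FPKM in wild-type embryos, differed by 0.15 on the log2(FPKM + 1) scale, where the median of all genes was 0.05. The tables mark the Cphx1 lines as low data in every library.

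**Figure D3:**
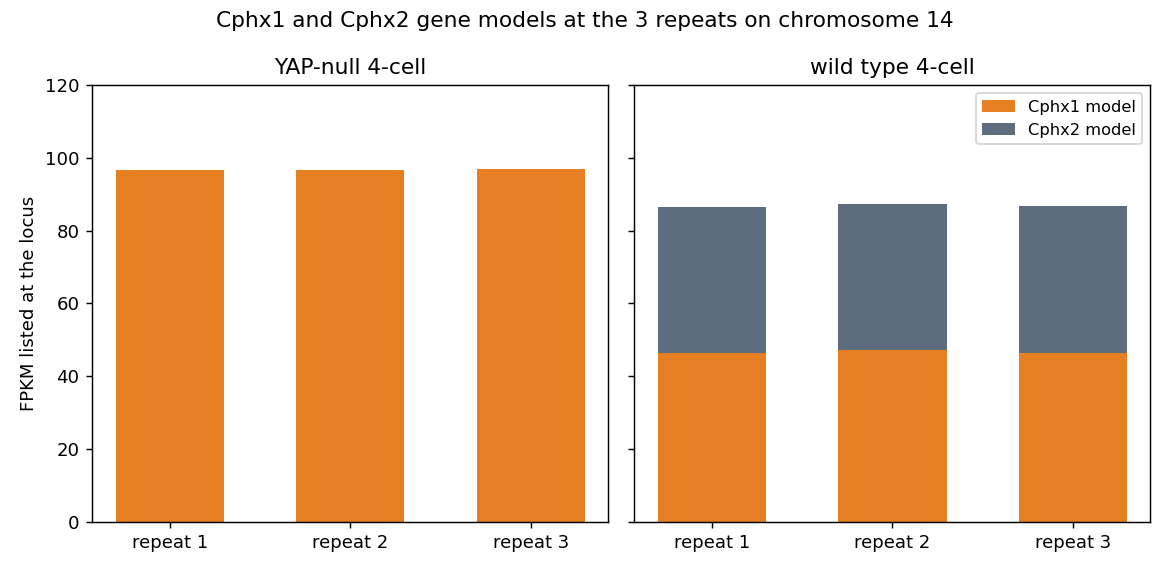
FPKM listed for the Cphx1 model (orange) and the Cphx2 model (grey), stacked, at each of the 3 repeats on chromosome 14 in the YAP-null 4-cell library (left) and the wild-type 4-cell library (right). The stacks are 96.6 to 96.8 FPKM high in the YAP-null library, nearly all of it under Cphx1, while in the wild-type library Cphx1 and Cphx2 share each repeat at 46.2 to 47.1 and 40.3 FPKM.

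The size of the 4-cell differences moved with the scaling of the libraries. With median-ratio scaling Crxos1 was at -1.38, the Trim43a + Trim43b sum at -1.07 and the Cphx1 + Cphx2 sum at 0.14. With equal library sums they were at -1.17, -0.87 and 0.35, so that the Trim43 sum was no longer 2-fold lower. With quantile normalization they were at -0.96, -0.79 and 0.42, and neither Crxos1 nor the Trim43 sum was 2-fold lower. These scalings also moved the median of all genes, which was 0.05 as deposited, 0.23 with equal sums and -0.08 with quantile normalization. Relative to that median, Crxos1 was at -1.42 as deposited, -1.40 with equal sums and -0.89 with quantile normalization, and the Trim43 sum was at -1.11, -1.10 and -0.71. Under each of these scalings Crxos1 and the Trim43 sum stayed below 0 and the Cphx sum above 0.

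**Figure D4:**
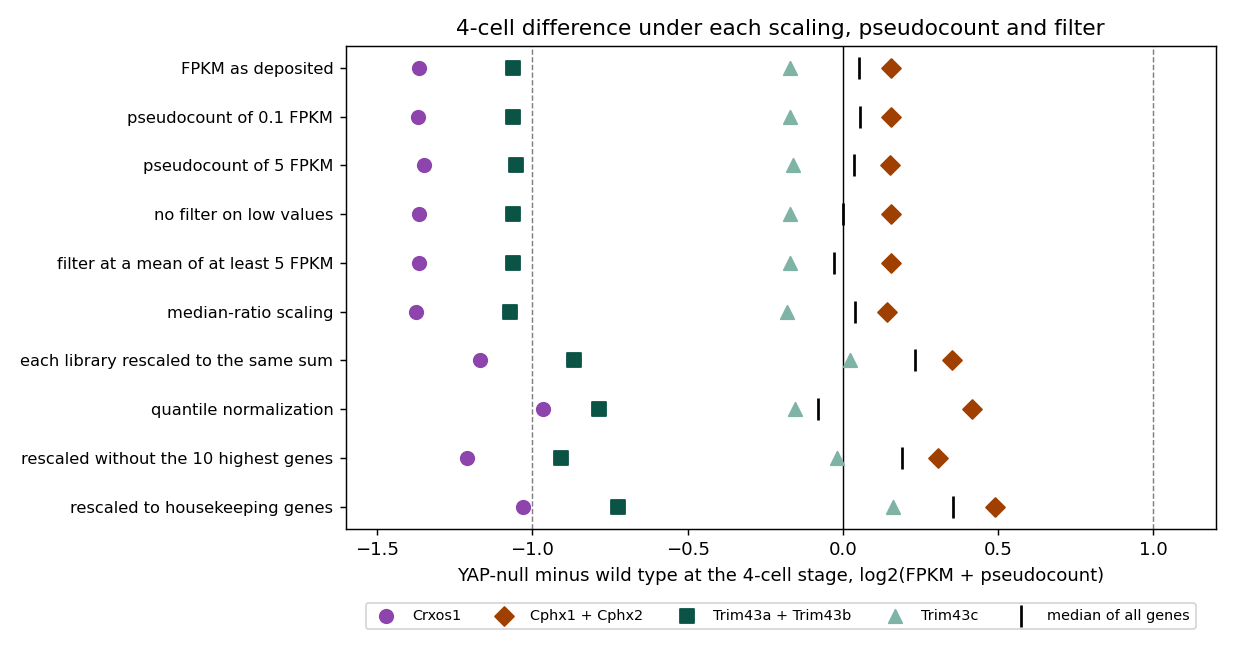
Difference between the YAP-null and the wild-type 4-cell library (horizontal axis, log2 of FPKM plus the pseudocount) for Crxos1, the copy sums and Trim43c under each scaling, pseudocount and filter (rows), with the median of all genes as a black tick. Dashed lines mark 2-fold. Crxos1 lies from -1.38 to -0.96, the Trim43a + Trim43b sum from -1.07 to -0.73 and the Cphx1 + Cphx2 sum from 0.14 to 0.49.

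Genes with the same stage pattern give a measure for these values. Besides Cphx1, Crxos1, Trim43a and Trim43b, 36 other genes stayed below 1 FPKM in all GV libraries and had a mean of at least 100 FPKM over both 4-cell libraries. These limits were set after the values were seen. Cphx1 met them only by its single value, which cannot be told from that of Cphx2. The Cphx1 + Cphx2 sum, at 1.11 FPKM in wild-type GV library 2, did not meet them. Of these 36 genes, 8 were at least 2-fold lower in the YAP-null library and 0 were at least 2-fold higher, 28 were below 0, and their median was -0.56. Over the other scalings the median ran from -0.57 to -0.22 and the number at least 2-fold lower from 8 to 2, and 1 was at least 2-fold higher with rescaling to housekeeping genes. Crxos1 had the third lowest difference of the 40 genes, after Bhmt (37.5 FPKM in YAP-null, 209 FPKM in wild-type embryos), a methyltransferase of methionine synthesis, and Timd2 (127 FPKM in YAP-null, 381 FPKM in wild-type embryos). Over all 911 genes at a mean of at least 100 FPKM, 11.2% were at least 2-fold lower.

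**Figure D5:**
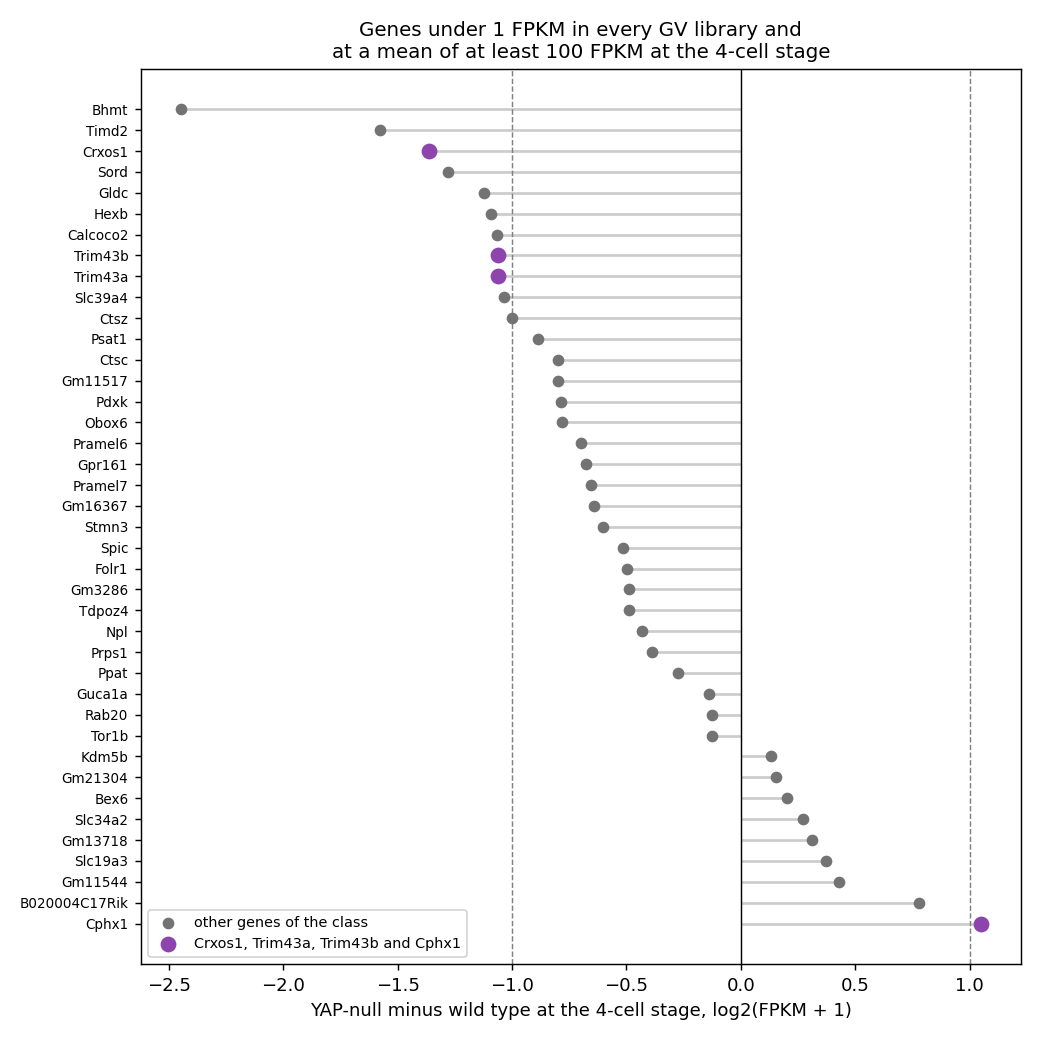
Difference between the YAP-null and the wild-type 4-cell library (horizontal axis, log2(FPKM + 1)) for the 40 genes below 1 FPKM in all GV libraries with a mean of at least 100 FPKM at the 4-cell stage, ordered from the lowest. Purple points are Crxos1, Trim43a, Trim43b and Cphx1, grey points the 36 other genes, and dashed lines mark 2-fold. Crxos1 has the third lowest value at -1.36. Cphx1, whose reads cannot be told from those of Cphx2, is at the other end at 1.05. The Cphx1 + Cphx2 sum does not meet the GV limit and is not shown.

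Likeness over all 6 libraries was measured as the root-mean-square difference in log2(FPKM + 1). The genes nearest to Crxos1 were the homeobox gene Obox6 at 0.23, the folate receptor gene Folr1 at 0.33 and the lysosomal protease gene Ctsc at 0.34. Obox6 was at 309 FPKM in YAP-null embryos, against 531 FPKM in wild-type embryos, and at 0.279 FPKM or listed at 0 in GV oocytes. Nearest to the Trim43a + Trim43b sum were Gm16367 at 0.16 (492 FPKM in YAP-null, 770 FPKM in wild-type embryos), Gm11517 at 0.20 (508 FPKM in YAP-null, 885 FPKM in wild-type embryos) and Obox6 at 0.29. Nearest to the Cphx1 + Cphx2 sum were the phosphate transporter gene Slc34a2 at 0.38, Folr1 at 0.46 and the sialic acid lyase gene Npl at 0.53. Slc34a2 was at 222 FPKM in YAP-null embryos, against 184 FPKM in wild-type embryos, the only one of these neighbours that was higher in YAP-null embryos.

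Among other divergent homeobox genes, those at least 2-fold higher in YAP-null embryos were mostly oocyte transcripts. Of a list of 33 paired-like and related homeobox genes without the 5 genes, 26 were in the tables and 16 reached a mean of 1 FPKM. Of these 16, 6 were at least 2-fold higher in the YAP-null library (17.7% of all genes) and 2 at least 2-fold lower (9.97%). The median was -0.01, against 0.05 for all genes. The 2 lower genes, Rhox9 and Pitx1, were listed at 0 in YAP-null embryos and reached the mean of 1 FPKM through the wild-type library alone, so their direction was fixed by that limit. Split by GV level, a split chosen after the values were seen, all 6 genes whose GV mean was 1 FPKM or more were above 0, and 5 of these were at least 2-fold higher. Of the 10 genes below that level 9 were below 0, Rhox9 and Pitx1 included, and 1, Obox3, was above 0, but with equal library sums 7 were below 0 and with rescaling to housekeeping genes 5 of 9. Obox5, an oocyte homeobox gene, was at 270.5 FPKM in YAP-null embryos, against 19.2 FPKM in wild-type embryos, and Obox2 at 200.96 FPKM in YAP-null embryos, against 7.14 FPKM in wild-type embryos. Both are oocyte transcripts here, at 472 FPKM or more in every GV library. Obox3 was at 131 FPKM in YAP-null embryos, against 51.1 FPKM in wild-type embryos, and at 0.429 to 1.36 FPKM in GV oocytes.

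Of 64 other Trim genes, 29 reached a mean of 1 FPKM. Of these, 9 were higher by 2-fold or more in YAP-null embryos (17.7% of all genes) and 1 was lower by as much (9.97%). The Trim median was 0.61, against 0.05 for all genes. Under the other scalings the Trim median ran from 0.47 to 0.91 and that of all genes from -0.08 to 0.35. The Trim genes were not split by GV level. Trim61 was at 566 FPKM in YAP-null embryos, against 43.5 FPKM in wild-type embryos and at 507 to 738 FPKM in GV oocytes. Trim28, the corepressor of zinc finger proteins, was at 181 FPKM in YAP-null embryos, against 327 FPKM in wild-type embryos. Trim13 was at 55.6 FPKM in YAP-null embryos, against 49.7 FPKM in wild-type embryos.

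Genes of the 2-cell stage, when the mouse embryonic genome is first broadly transcribed, were taken as a list of 46, of which 37 were in the tables and 34 reached a mean of 1 FPKM. Of these, 4 were higher and 3 lower by 2-fold or more in YAP-null embryos, against 17.7% and 9.97% of all genes. Their median was 0.25, against 0.05 for all genes. Under the other scalings it ran from 0.06 to 0.57, and that of all genes from -0.08 to 0.35. The most abundant of them, Slc34a2, is given above at 222 FPKM in YAP-null embryos, against 184 FPKM in wild-type embryos, and was higher by value. Pramel7 was at 132 FPKM in YAP-null embryos, against 209 FPKM in wild-type embryos, Pramel6 at 102 FPKM in YAP-null embryos, against 166 FPKM in wild-type embryos, and Tdpoz4 at 89.4 FPKM in YAP-null embryos, against 126 FPKM in wild-type embryos. Pramel7, Pramel6 and Tdpoz4 were listed at 0 in every GV library.

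Transcripts of other cells and of the oocyte moved between the 4-cell libraries as well. Of the 22 oocyte markers 20 were at least 2-fold higher in the YAP-null library, where 17.7% of all genes were. The marker median was 3.10 on the log2(FPKM + 1) scale. The summed marker level was 2852 FPKM in YAP-null against 330.3 FPKM in wild-type embryos. The 15 granulosa and cumulus markers summed to 94.0 FPKM in YAP-null embryos, against 182 FPKM in wild-type embryos, of which Nr5a2, a gene that the embryo also uses, made up 92.1 and 179 FPKM. Of these 15, 11 were listed at 0 in YAP-null and 5 in wild-type embryos, and Fshr was at 0 in both. Over all genes, 13144 of 23813 lines were above 0 in the YAP-null and 15021 in the wild-type 4-cell library. Values of 0 were thus more common in the YAP-null library throughout, which bears on these and the following counts. The 7 blood markers summed to 25.9 FPKM in YAP-null embryos, against 93.7 FPKM in wild-type embryos, with 5 at 0 in YAP-null and 0 at 0 in wild-type embryos. Hba-a1 was at 25.9 FPKM in YAP-null embryos, against 26.3 FPKM in wild-type embryos. Hba-a2 was at 0.0668 against 26.0 FPKM, Beta-s at 0 against 25.2 FPKM and Hbb-b2 at 0 against 15.9 FPKM. How reads shared by globin copies were assigned is not stated, so these sums are uncertain. The 8 sperm markers summed to 5.09 FPKM in YAP-null embryos, against 0.153 FPKM in wild-type embryos, with 7 at 0 in YAP-null and 6 in wild-type embryos. The YAP-null sum was all Prm2, which was also listed at 2.28 to 10.2 FPKM in the GV oocyte libraries. The sum therefore does not show sperm RNA. The 9 housekeeping genes had a median of -0.34, and 1 of them was lower by 2-fold or more while 0 were higher by as much. The part of these transcripts in the differences of Crxos1 and the Trim43 genes was not tested.

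The promoters were read because YAP acts through TEAD factors and Crxos1 and the Trim43 genes lay on the same side at the 4-cell stage. RefSeq windows (GRCm38.p6) were matched for 4 of the 5 genes, Crxos (3 start sites), Cphx1, Cphx2 and Trim43a. The 250 bases before each start were searched on both strands for the TEAD letters GGAATG, the paired-like homeodomain letters TAATCC, the DUX motif, the NFY letters CCAAT, the GATA letters AGATAA and the TATA letters TATAAA. The TEAD letters were in none of the 6 windows, against 12.6% of 32851 windows of all genes. TAATCC (6.25% of all windows), the DUX motif (0.0304%) and AGATAA (9.99%) were in none either. The windows are few and short, and those of Cphx1 and Cphx2 are nearly the same sequence. These absences, that of the TEAD letters included, say only that the letters are not in these windows. The Cphx1 and Cphx2 windows were identical over 246 aligned bases, and each held CCAAT on the opposite strand (33.8% of all windows) and TATAAA (12.4%), far from the start, at bases 249 to 244 before the Cphx1 start. No matches overlapped. The first window of Crxos, the window of Trim43a and that of Cphx1 are printed with matches in capitals.
Crxos promoter, chr7:15882367-15882616, plus strand: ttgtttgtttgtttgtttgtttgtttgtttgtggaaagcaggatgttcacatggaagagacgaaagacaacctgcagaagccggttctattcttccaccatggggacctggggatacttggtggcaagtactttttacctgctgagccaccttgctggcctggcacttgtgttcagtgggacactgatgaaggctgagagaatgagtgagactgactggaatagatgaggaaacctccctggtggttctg
Trim43a promoter, chr9:88580641-88580890, plus strand: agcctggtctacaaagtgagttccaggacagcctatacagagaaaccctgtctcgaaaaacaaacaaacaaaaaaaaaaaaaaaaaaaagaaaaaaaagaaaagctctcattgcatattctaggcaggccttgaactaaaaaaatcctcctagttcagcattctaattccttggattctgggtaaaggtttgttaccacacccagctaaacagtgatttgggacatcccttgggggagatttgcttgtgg
Cphx1 promoter, chr14:25942294-25942543, plus strand: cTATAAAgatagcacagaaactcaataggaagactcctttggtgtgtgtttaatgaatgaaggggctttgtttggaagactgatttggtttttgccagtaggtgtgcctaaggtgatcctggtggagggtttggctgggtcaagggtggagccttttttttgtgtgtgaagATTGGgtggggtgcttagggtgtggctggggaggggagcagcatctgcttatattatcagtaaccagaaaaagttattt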

How the data were processed

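Messenger RNA of 6 libraries was sequenced from both ends, per the labels' protocols. The submitters' processing notes name CASAVA 1.8, TopHat and build mm9; the sources used here do not give the quantification tool, annotation release or strand setting. Per the file headers, the values deposited by the authors are FPKM with a lower and an upper bound. Depth is unknown. A line that failed in 1 library was left out of all tables, and symbols at several loci (260) were summed, leaving 23308. Starts were counted from 1. Levels were compared as log2(FPKM + 1), over genes whose mean in the libraries compared was 1 FPKM or more. The GV genotypes were fitted without a replicate block by limma 3.58.1 with an intensity trend under R 4.3.3, a step tested on simulated data. 4-cell groups of 1 library were not tested. Coding sequences were aligned with Biopython 1.88.

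The 5 genes and all lists were chosen with earlier results of these data known. Named besides them are Yap1, neighbours and copies, the 3 most alike genes per unit by likeness, and up to 4 genes per list by mean 4-cell level. Single marker genes that make up a marker sum are named as well. Alternatives were other pseudocounts, filters and scalings, a replicate block, single libraries left out, and copies summed. Rescaling without the 10 highest genes and rescaling to 9 housekeeping genes were added after seeing the data.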

Additional observations from a re-analysis of the deposited data

How the results depend on the processing

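The 4-cell differences were -1.36 for Crxos1, -1.06 for the Trim43a + Trim43b sum and 0.15 for the Cphx1 + Cphx2 sum. Under other pseudocounts and filters and median-ratio scaling they ran from -1.38 to -1.35, from -1.07 to -1.05 and from 0.14 to 0.15. With equal library sums they were -1.17, -0.87 and 0.35, and 1 of these 3 was at least 2-fold lower, against 2 as deposited. With quantile normalization they were -0.96, -0.79 and 0.42, and 0 of the 3 was 2-fold lower. With rescaling without the 10 highest genes they were -1.21, -0.91 and 0.31 (1 of the 3). With rescaling to housekeeping genes they were -1.03, -0.73 and 0.49 (1 of the 3). Both were chosen after seeing the data. Of the 9 housekeeping genes 8 were below 0 as deposited (median -0.34), so rescaling to them raises every difference by construction. The cause of the other shifts was not tested. Summing the copies took Cphx1 from 1.05 to 0.15 and turned Cphx2 from -6.80 to 0.15, their transcripts being identical over all aligned bases. The 3007 genes 2-fold apart became 1275 with a pseudocount of 5 FPKM and 1723 at a mean of at least 5 FPKM, which compresses or drops low genes by construction. Counts of genes above every GV library held under each alternative run.

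In GV oocytes 0 genes were called, and 2, Yap1 among them, with the replicate block. The labels do not say that a number marks a shared animal or day, although the number 1 libraries deviated together across genes (r = 0.85 over 10462 genes, which are not independent). Without 1 library 2 to 7 genes were called, 2 and 3 without YAP-null library 1 or 2 and 7 and 5 without wild-type library 1 or 2, fits in which a lone library takes its spread from the other group. None of the 5 genes entered any of these filtered fits.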

Other observations

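The 5 genes together held 0.232% of the FPKM sum of the YAP-null 4-cell library and 0.371% of that of the wild-type 4-cell library. Within their sum the Cphx genes made up 32.4% in YAP-null and 15.9% in wild-type embryos, Crxos1 26.0% in YAP-null and 36.6% in wild-type embryos, and Trim43a with Trim43b 41.6% in YAP-null and 47.5% in wild-type embryos. Such shares within a library do not depend on a factor that scales all genes alike. They do depend on adding the values of the 3 Cphx repeats.

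Duxbl genes, part of the homeobox list above, encode double homeodomain proteins. Named after their values were seen, Duxbl1 was at 1.02 FPKM in YAP-null embryos, against 0.439 FPKM in wild-type embryos, Duxbl3 was at 26.0 FPKM in each 4-cell library, and Duxbl2 at 12.3 FPKM in YAP-null embryos, against 12.5 FPKM in wild-type embryos. All 3 were listed at 0 in every GV library. They too are listed as copies at overlapping loci, so single values are uncertain.

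Of the sum over the Trim43 copies, Trim43c held 15.4% in the YAP-null and 8.93% in the wild-type 4-cell library, shares that depend on how shared reads were assigned.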
